A study of Mus musculus with 8 samples.

Results

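A set of 8 genes of alcohol and aldehyde oxidation was followed across the livers of 8 mice: the alcohol dehydrogenases Adh1, Adh4 and Adh5 and the aldehyde dehydrogenases Aldh1a1, Aldh1a7, Aldh2, Aldh3a2 and Aldh9a1. They were taken by gene symbol from the annotation of an Affymetrix mouse U74Av2 array, which reads each transcript with a set of short oligonucleotide probes. The 8 genes had 14 probe sets and were among 8251 genes named by 1 symbol. The brightest probe set stood for a gene and the others served as a check. All 8 arrays formed 1 group (n = 8) of female mice of the Ames stock. This stock carries df, a recessive allele of pituitary dwarfism. The animals had the normal phenotype and were +/+ or +/df, which the labels do not tell apart. They ate 30% less than normal females with free access to food and were 24 to 26 months old at death. With no freely fed and no dwarf group analysed here, the comparison is between animals, and the spread over arrays holds animal and technical differences together.

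Ethanol and many endogenous alcohols are oxidized in hepatocytes in a pair of steps, each of which reduces NAD+. Cytosolic alcohol dehydrogenases form the aldehyde, and aldehyde dehydrogenases, chiefly the mitochondrial enzyme for acetaldehyde, turn it into the acid. The same families oxidize retinol to retinoic acid, clear formaldehyde and lipid aldehydes, and serve carnitine synthesis. Levels below are quantile-normalized signals in arbitrary units. Signals of different probe sets are not on a common scale, so no gene is ranked above another by level.

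The genomic stretch before 4 of the genes is shown first. These 4, Adh4, Aldh1a1, Aldh1a7 and Aldh9a1, were picked after their signals were seen to be lowest on the same array. The stretches come from RefSeq (GRCm38.p6), which gave 9 annotated starts for 7 of the 8 genes. Capitals mark the CCAAT box (CCAAT, or ATTGG where it lies on the other strand) and the octamer ATGCAAAT. Both were searched on both strands, and they do not overlap each other. That of Aldh1a1 lies at chr19:20601718-20601967 (plus strand), inside the annotated span of a longer transcript that starts 109 kb upstream. That of Aldh1a7 lies at chr19:20727557-20727806 (minus strand), outside any annotated gene. Those of Adh4, chr3:138415247-138415455, and Aldh9a1, chr1:167349741-167349962, lie on the plus strand and end where the annotated gene begins.
Aldh1a1: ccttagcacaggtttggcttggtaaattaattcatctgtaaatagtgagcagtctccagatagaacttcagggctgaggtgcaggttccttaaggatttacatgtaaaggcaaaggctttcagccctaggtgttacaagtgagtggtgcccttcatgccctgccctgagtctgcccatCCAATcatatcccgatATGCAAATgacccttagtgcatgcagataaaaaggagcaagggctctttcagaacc
Aldh1a7: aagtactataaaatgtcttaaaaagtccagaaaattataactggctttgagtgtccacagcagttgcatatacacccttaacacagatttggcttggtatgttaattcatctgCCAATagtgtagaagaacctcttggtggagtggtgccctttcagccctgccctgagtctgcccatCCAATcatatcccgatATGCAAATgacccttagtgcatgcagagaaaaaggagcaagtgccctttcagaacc
Adh4: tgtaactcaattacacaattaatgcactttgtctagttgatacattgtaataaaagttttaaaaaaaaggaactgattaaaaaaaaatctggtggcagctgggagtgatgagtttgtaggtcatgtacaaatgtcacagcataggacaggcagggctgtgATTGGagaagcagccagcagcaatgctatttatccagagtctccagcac
Aldh9a1: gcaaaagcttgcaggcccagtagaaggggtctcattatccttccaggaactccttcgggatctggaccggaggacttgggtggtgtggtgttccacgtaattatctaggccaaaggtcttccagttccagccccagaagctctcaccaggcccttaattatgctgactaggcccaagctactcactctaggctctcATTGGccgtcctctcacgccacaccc
Aldh1a1 and Aldh1a7 shared an unbroken run of 65 bases, from 94 to 30 bases before the start of each gene. It holds a CCAAT box that begins 72 bases and an octamer that begins 56 bases before the start. Over the 250 bases their alignment had 185 identical positions of 272. In the 250 bases before each of 32851 annotated starts, the CCAAT box occurred in 33.8% and the octamer in 1.60%. Among the 9 starts of the 7 genes, 5 held a CCAAT box and 2 held an octamer. The CCAAT box start not shown is that of Aldh3a2, whose signal was lowest on another array. The other annotated start of Aldh1a1 held neither motif, and its longest run shared with Aldh1a7 was 8 bases. The second annotated start of Adh5 had 63.6% G and C and 21 CpG, against medians of 52.4% and 6 over all starts, and it held the GC box GGGCGG at 3 places on the other strand. The Aldh3a2 start was close to it, with 61.2%, 18 CpG and 1 GC box. The first Adh5 start had 45.2%, 2 CpG and no GC box. These are letter matches, and no binding was measured. A link between a motif and the signal on any array was not tested.

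A pair of arrays stood apart over the whole table. The median correlation of an array with the others was 0.881 for replicate 5 and 0.943 for replicate 6, against 0.962 to 0.974 for the rest. On replicate 5 the 3′ over 5′ ratio of the Gapdh control sets, a sign of RNA quality, was 4.35 on the log2 scale, against −0.24 to 0.33 elsewhere. For pyruvate carboxylase it was 4.33 on replicate 5, 4.30 on replicate 6 and 1.42 to 2.76 on the other 6. All 6 hepatocyte markers passed the level filter, with a summed signal of 139717 to 145571. In bulk tissue, fewer cells of a type and less RNA per cell cannot be told apart.

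**Figure D1:**
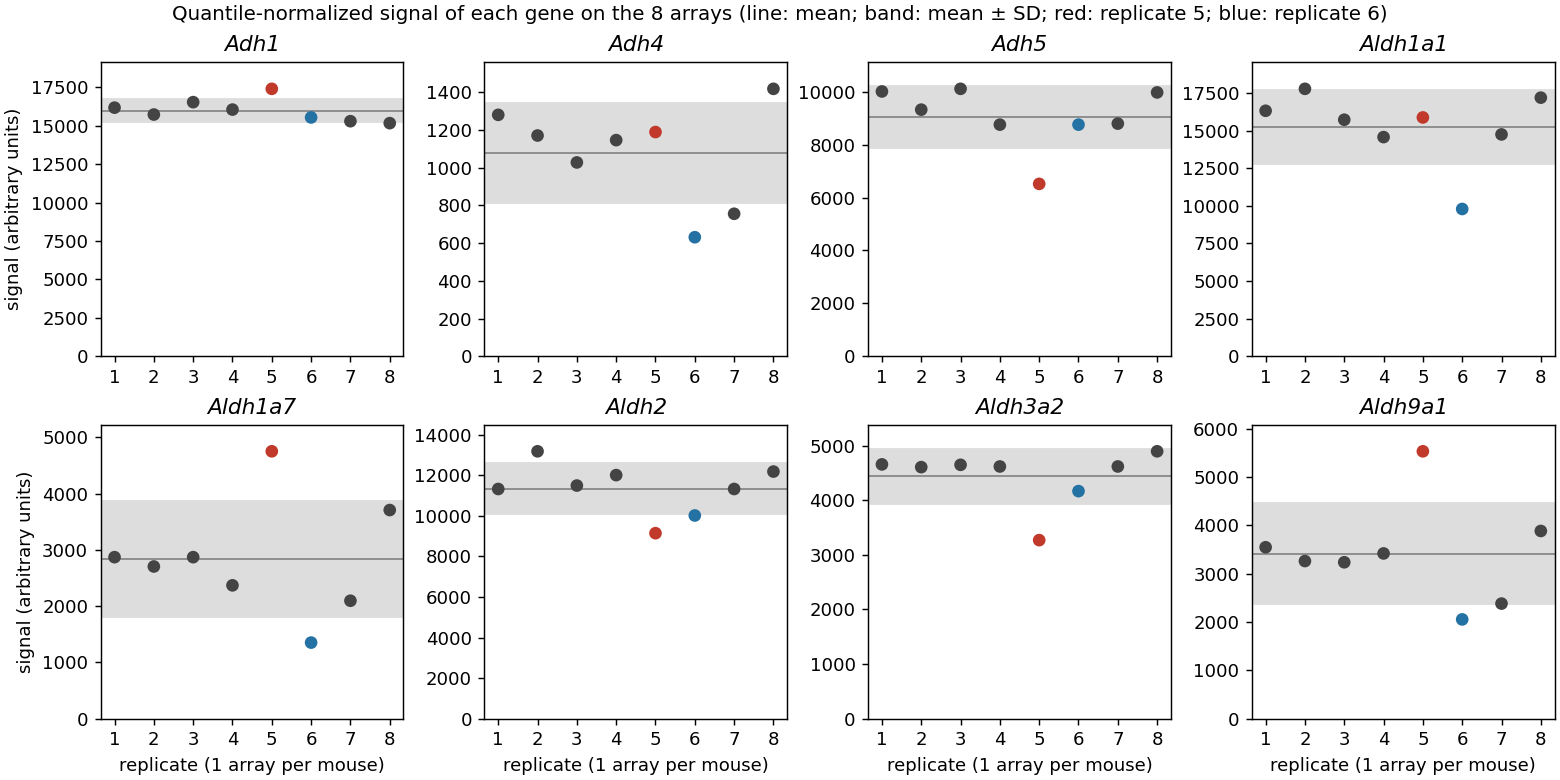
Signal of each of the 8 genes (vertical axis, arbitrary units, from 0) on each array (horizontal axis, replicates 1 to 8, with no order between them); the line is the mean, the band is mean ± SD, replicate 5 is red and replicate 6 blue. Adh1 lies in a narrow band, Adh4, Aldh1a1, Aldh1a7 and Aldh9a1 are lowest on replicate 6, and Adh5, Aldh2 and Aldh3a2 are lowest on replicate 5.

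Of the alcohol dehydrogenases, Adh1 was the steadiest between animals. Adh1 encodes the classical hepatic enzyme that oxidizes ethanol and retinol. It ran from 15163 on replicate 8 through a median of 15884 to 17396 on replicate 5, with a mean of 15981.5 ± 732 (SD, n = 8), a 1.15-fold range. Its other 7 arrays lay between 15163 and 16529.5. On the deposited scale, before quantile normalization, the range was 1.25-fold.

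Adh4, a class known for retinol and longer alcohols, differed over 2-fold between animals. It ran from 631 on replicate 6 through a median of 1159 to 1418 on replicate 8, with a mean of 1077.5 ± 264 (SD, n = 8). Replicate 7 was at 756, and the 6 arrays other than 6 and 7 lay between 1028 and 1418, so these 2 arrays stood below all others. The second Adh4 probe set was also lowest on replicate 6, at 491, with 756 to 1281 on the other 7. Its second lowest array was replicate 3, at 756, with replicate 7 next at 787.

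Adh5, the glutathione-dependent enzyme that clears formaldehyde and reduces S-nitrosoglutathione, was alike on 7 arrays. It read 6519 on replicate 5, had a median of 9063 and reached 10114 on replicate 3, with a mean of 9034 ± 1173 (SD, n = 8). Without replicate 5 it lay between 8759.8 and 10114. The second Adh5 probe set went the other way on that array, with 6624 there and 4323 to 5152 elsewhere.

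Aldh2, the mitochondrial enzyme that oxidizes acetaldehyde, had a narrow range as well by its brightest set. Its signal was 9142 on replicate 5 and 10015 on replicate 6, with a median of 11406 and a highest value of 13178 on replicate 2. The mean was 11331 ± 1261 (SD, n = 8), and without replicates 5 and 6 the range was 1.16-fold, from 11321 to 13178.

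Aldh1a1, a cytosolic retinaldehyde dehydrogenase, was low on a single array. It read 9789.8 on replicate 6 and 14568 to 17777 on the other 7, with a median of 15799 and a mean of 15248 ± 2462 (SD, n = 8). The group of 7 spanned 1.22-fold and replicate 6 lay outside it. A second Aldh1a1 probe set was dim, at 75.8 ± 35.3, and did not pass the level filter.

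Aldh1a7, a rodent gene closely related to Aldh1a1, had the widest range of the 8 genes by their brightest sets, 3.51-fold. It ran from 1352 on replicate 6 through a median of 2787 to 4749.8 on replicate 5, with a mean of 2839 ± 1029 (SD, n = 8). Replicate 7 was second lowest at 2095.5 and replicate 8 second highest at 3706. Without replicates 5 and 6 the range was 1.77-fold. Probe sequences were not used here, so cross-hybridization between Aldh1a1 and Aldh1a7 was not tested.

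Aldh3a2 encodes the fatty aldehyde dehydrogenase of the endoplasmic reticulum, and on 6 arrays it was nearly constant. It was 3269.9 on replicate 5 and 4167 on replicate 6, and the other 6 arrays lay between 4606 and 4896, a 1.06-fold range. The median was 4618 and the mean 4435 ± 512 (SD, n = 8). A second, dimmer probe set read 3622 on replicate 5 and 696 to 1487 on the others, opposite to the brightest.

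Aldh9a1 oxidizes aminoaldehydes, among them γ-trimethylaminobutyraldehyde of carnitine synthesis. It ran from 2056 on replicate 6 through a median of 3342 to 5535 on replicate 5, a 2.69-fold range, with a mean of 3417 ± 1049 (SD, n = 8). Replicate 7 was at 2383 and replicate 8 at 3886; as for Aldh1a7, replicates 6 and 7 were the lowest pair and 5 and 8 the highest. Its single probe set carries the suffix _f, which marks probes shared within a gene family.

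Set against the table as a whole, the extremes fell on few arrays. Replicate 6 held the lowest value of 4 of the 8 genes (Adh4, Aldh1a1, Aldh1a7 and Aldh9a1), where it held that of 16.6% of the 4810 genes kept. Replicate 5 held the lowest of 3 (Adh5, Aldh2 and Aldh3a2; 28.3% of all genes) and the highest of 3 (Adh1, Aldh1a7 and Aldh9a1; 34.1%). On the deposited scale Aldh1a1 was highest on replicate 5 as well, at 17482. For 3 genes (Adh4, Aldh1a7 and Aldh9a1) the 2 lowest arrays were replicates 6 and 7, as for 7.57% of all genes. This count was chosen after the values were seen, and the second Adh4 probe set had replicates 6 and 3 lowest. Markers of other cell types differed on replicate 6 too. The summed signal of the 4 erythroid markers measured was 3663 there and 7456 to 8673 on the 7 others, and that of the 3 adipose markers 2103 against 567 to 1729. For the 6 stellate cell markers it was 5826 there, 7613 on replicate 7 and 7240.5 to 8191 on the remaining 6. Bright genes rule such sums: the erythroid marker Hba-a1 alone read 2395 on replicate 6 and 5989 to 7174 on the others. With equal weights, as a mean log2 deviation, the 3 kept erythroid markers were lowest on replicate 6 as well, at −0.61. Of the adipose markers 1 passed the level filter. No marker was at the floor on every array, and the part of these cells in the low values was not tested. The summed macrophage (3902 to 6624), endothelial (3092 to 4177) and exocrine pancreas (1359.7 to 3815) markers had their lowest values on replicates 5, 2 and 1. With each kept marker weighted equally, as a mean log2 deviation, the endothelial markers were lowest on replicate 6, at −0.58 against −0.10 to 0.24 elsewhere, and the exocrine markers on replicate 5, at −0.70.

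The spread of each gene was then compared with that of transcripts of like level by limma, as a log2 variance ratio that is above 0 where the gene differed more. The ratio was 2.38 for Aldh1a7 (adjusted p = 0.909 by limma, 1-sided), 1.82 for Aldh9a1, 1.52 for Aldh1a1, 1.34 for Adh4 and 0.35 for Adh5 (adjusted p = 0.988 for each of these 4). It was below 0 for Aldh2 (−0.10), Aldh3a2 (−0.47) and Adh1 (−2.53). Ratios above 0 were thus found for 5 of 8 genes, against 53.4% of 6211 probe sets, and the median over the 8 genes was 0.85 against 0.12 over all. None of the 8 passed at an adjusted p of 0.05 in limma's test for more spread, and neither did any probe set (0 of 6211, 0%). At an unadjusted p of 0.05 by limma there were 0 of 8 genes by the brightest set and 352 probe sets (5.67%). The second Aldh3a2 set was among these 352, with a ratio of 3.25 (unadjusted p = 0.0226, adjusted p = 0.842 by limma). Other kept sets had ratios of 2.47 and −0.67 (Aldh2), 1.86 (Adh4) and −0.55 (Adh5). For less spread, Adh1 had an unadjusted p of 0.0223 and an adjusted p of 0.841 by limma. For it 0 probe sets (0%) passed, with 329 (5.3%) at an unadjusted p of 0.05 by limma. On the deposited scale the Adh1 ratio was −1.30 (adjusted p = 0.986 for less spread by limma), and Aldh2 (−1.42) and Aldh3a2 (−1.36) lay below it. By the brightest set, 3 of the 8 genes (Adh4, Aldh1a7 and Aldh9a1) differed over 2-fold between their lowest and highest array, as did 38.6% of all probe sets. Among the other kept sets the range was 5.20-fold for Aldh3a2, 2.84-fold and 1.47-fold for Aldh2, 2.61-fold for Adh4 and 1.53-fold for Adh5. The test asks about excess over the common spread, so it does not show that animals were alike. That common spread and its variation between transcripts were fitted to these same probe sets, so few could pass after adjustment. Plg, with an SD of 1.80 on the log2 scale and a ratio of 6.66, did not pass.

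**Figure D2:**
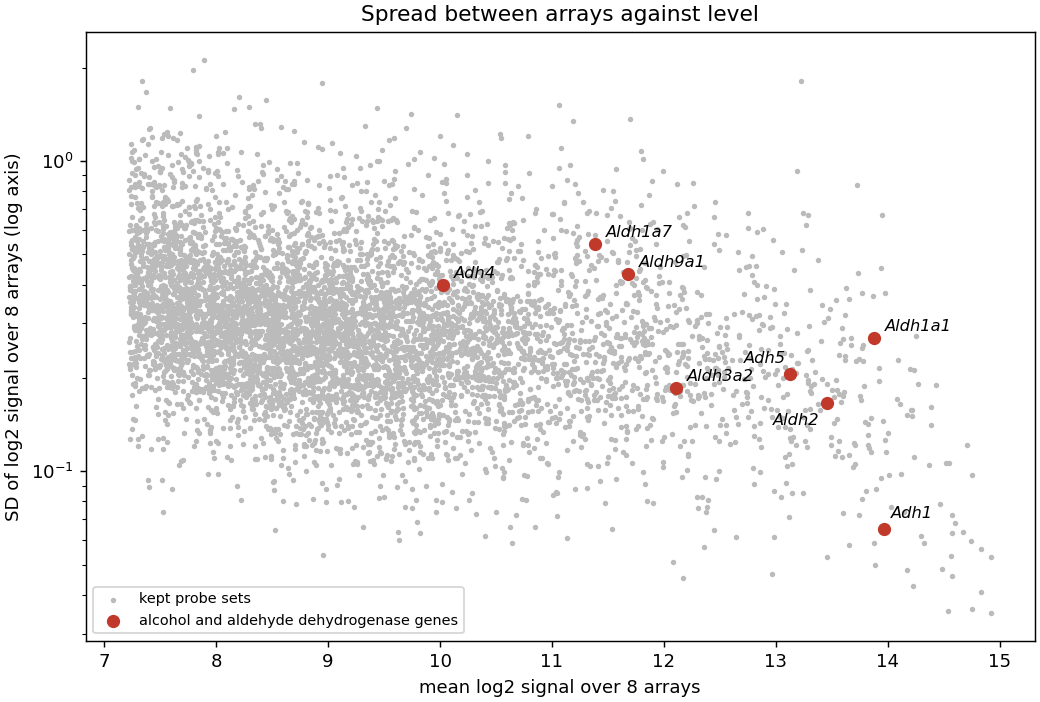
SD of log2 signal over the 8 arrays (vertical, log axis) against mean log2 signal (horizontal). The 6211 kept probe sets are grey and the 8 genes, by their brightest sets, are red. Aldh1a7 has the highest SD of the 8, 0.54, and Adh1 the lowest, 0.07, among probe sets whose SD falls as the signal rises.

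Whether the enzymes rose and fell together was asked of all 28 pairs, with exact 2-sided permutation tests over the 40320 pairings of the 8 arrays and adjustment over the 28 pairs. By r, 2 pairs passed. Aldh1a7 and Aldh9a1 had r = 0.95 (permutation p = 0.00134, adjusted 0.0375) and rho = 0.87 (permutation p = 0.00724, adjusted 0.101). Adh5 and Aldh3a2 had r = 0.93 (permutation p = 0.00337, adjusted 0.0472) and rho = 0.80 (permutation p = 0.0213, adjusted 0.149). No pair passed by rho, where 5 had an unadjusted permutation p under 0.05, and 8 did by r. Next came Aldh2 and Aldh3a2 with r = 0.86, and then Adh4 with r = 0.84 to Aldh1a1, 0.83 to Aldh1a7 and 0.82 to Aldh9a1 (adjusted permutation p = 0.0510 for each).

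The pairs differed in the arrays they rested on. Each pair was read again without the 2 arrays farthest from the median of its first gene. Aldh1a7 and Aldh9a1 had r = 0.83 (exact permutation p = 0.0667) without replicates 5 and 6. Adh5 and Aldh3a2 had r = 0.63 (exact permutation p = 0.183) without replicates 3 and 5. The second pair rests on replicate 5, with r = 0.60 once that array was left out and 0.94 without replicate 6. On the 6 arrays without replicates 5 and 6 it had r = 0.51, beside the 0.83 already given for Aldh1a7 and Aldh9a1 on these arrays. On those 6 arrays Adh4 and Aldh9a1 had r = 0.98 (exact permutation p = 0.00417, adjusted 0.117), with Adh4 again low on replicate 7 and high on replicate 8. No pair passed without both arrays (3 had an unadjusted permutation p under 0.05), and none passed without replicate 1, 3, 6, 7 or 8 alone. Aldh1a7 and Aldh9a1 had r = 0.93 to 0.97 with any single array left out. Adh5 and Aldh3a2 no longer passed on the deposited scale (r = 0.92) or with the probe sets of each gene averaged (r = 0.39). Without replicate 5, 27 of 28 pairs were positive and 10 passed by r. They were led by Adh4 and Aldh9a1 (r = 0.99, adjusted permutation p = 0.0167) and Aldh1a7 and Aldh3a2 (r = 0.95, adjusted permutation p = 0.0333). By rho none of the 28 passed on these arrays (lowest adjusted permutation p = 0.0778, for Adh4 and Aldh9a1). How many pairs of other genes would pass, with all arrays or without replicate 5, was not counted, so neither count is read as particular to these genes. Aldh1a7 and Aldh3a2 had r = −0.32 with all 8 arrays, so replicate 5 turned the sign of this pair. Without replicate 5, Adh1 had r between −0.0045 and 0.39 with the 7 other genes and passed with none.

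**Figure D3:**
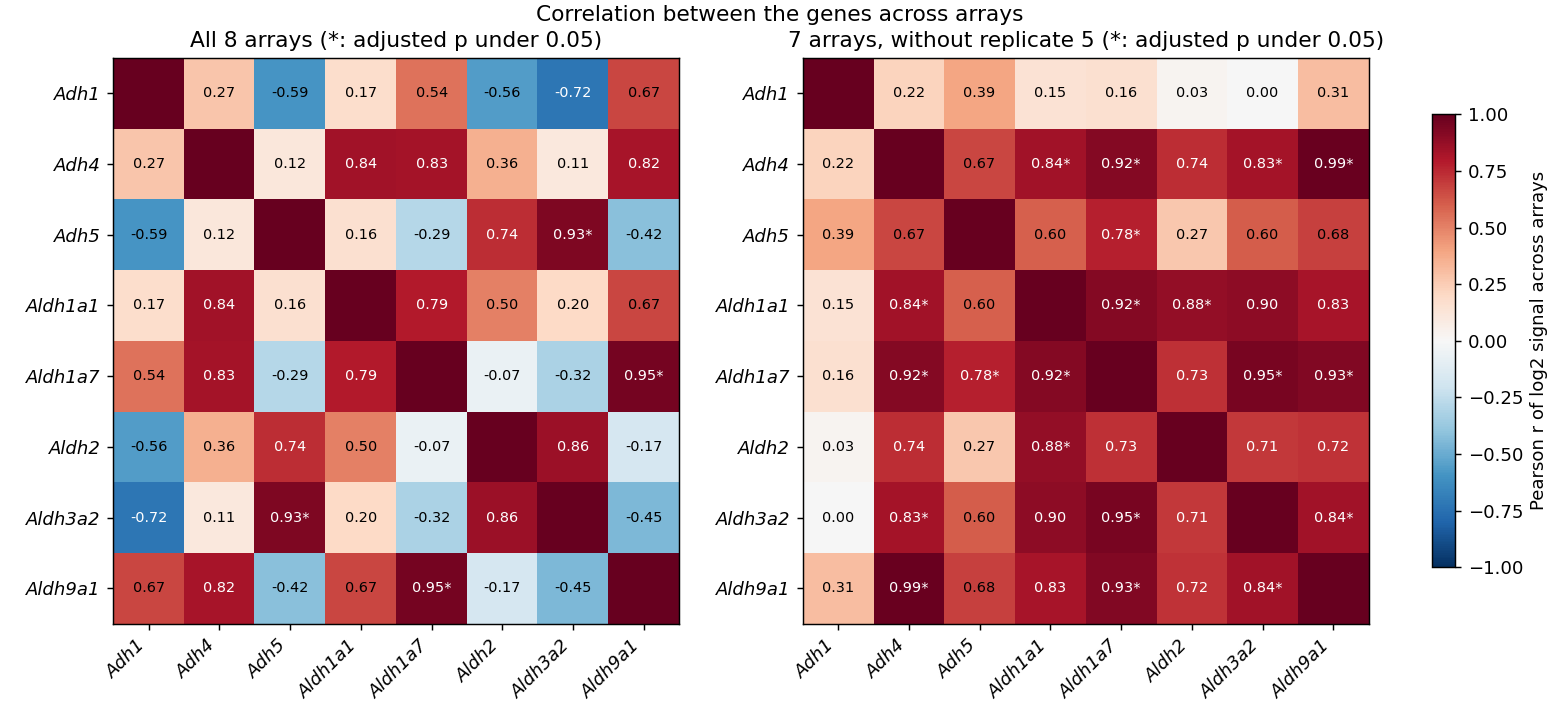
Pearson r of log2 signal across arrays for each pair of genes (colour and printed value), for all 8 arrays (left) and the 7 arrays without replicate 5 (right, normalized anew); a star marks an adjusted permutation p under 0.05. With all arrays 2 pairs carry a star, and without replicate 5 there are 10 and the negative values of the left panel are gone but for 1 near 0.

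Probe sets of the same gene gave a check within each array. Of the 8 genes, 4 had over 1 kept probe set, which made 6 pairs of sets, and 5 of the 6 were most apart on replicate 5, against 50.7% of the 894 such pairs in the table. For Adh5 the log2 difference between the brightest set and the other was −0.02 on replicate 5 and 0.80 to 1.11 on the other arrays. For Aldh3a2 it was −0.15 on replicate 5 and 1.65 to 2.64 elsewhere. Of the 3 Aldh2 sets, 1 was low there (3289.7 against 6498 to 9351), 1 was high (3749 against 2553 to 3388) and the brightest was its lowest. The 2 Adh4 sets followed each other on all arrays, with r = 0.87 (exact permutation p = 0.00305, adjusted over the 6 pairs 0.0183) and rho = 0.81 (permutation p = 0.0218), and r = 0.74 without replicates 5 and 6. The values of Adh5, Aldh2 and Aldh3a2 on replicate 5 thus depended on the probe set read, on the array with the raised Gapdh 3′ over 5′ ratio. The second Aldh3a2 set and the Aldh2 set that was high on replicate 5 also carry the suffix _f, as the Aldh9a1 set does. The brightest sets of Adh5 and Aldh2 and the second Adh4 set carry another suffix, _s, so suffixes are not limited to the dimmer sets. The parts of RNA quality and of shared probes in these differences were not tested.

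**Figure D4:**
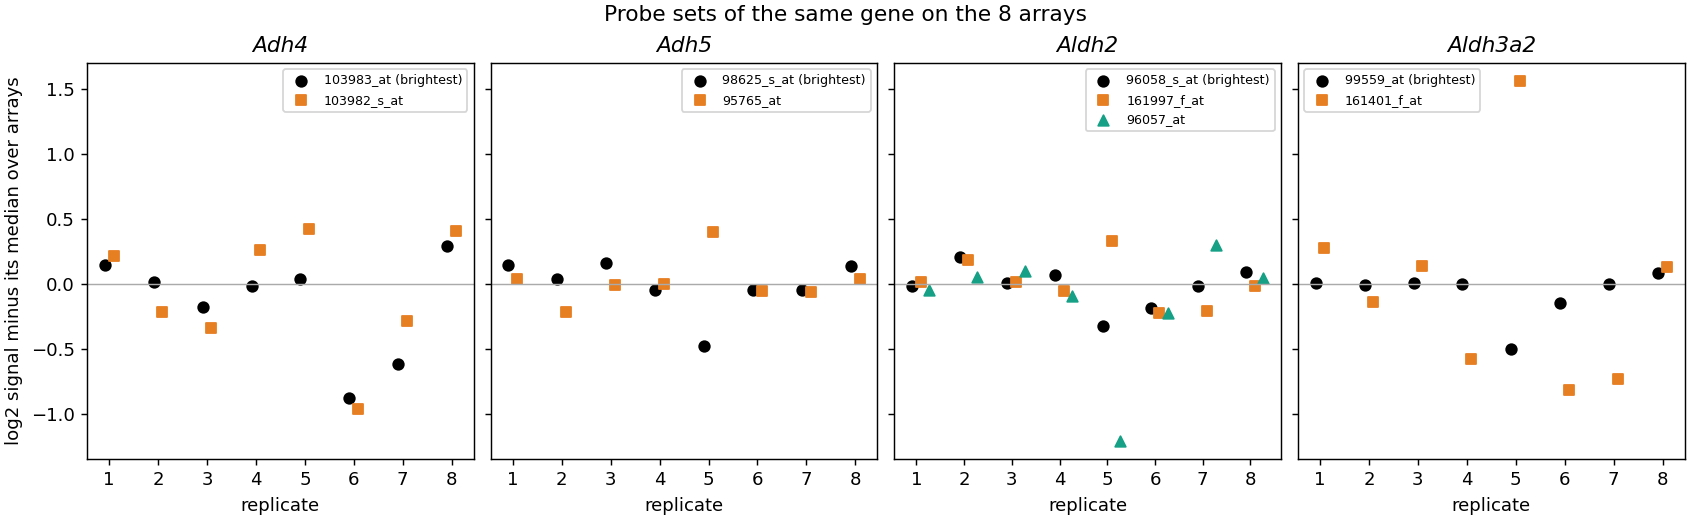
Log2 signal minus its median over arrays (vertical) on each array (horizontal, replicates with no order) for each kept probe set of the 4 genes with over 1; colours and symbols are probe sets, named in each panel. The sets of Adh5, Aldh2 and Aldh3a2 split on replicate 5, while both Adh4 sets are low on replicate 6.

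Other genes of these pathways came from 5 lists that held 72 genes; the array measured 42 of them under 1 symbol, and 28 passed the level filter. None of the 28 passed limma's test for more or for less spread after adjustment; at an unadjusted p of 0.05, 1 had more and 3 had less. The median log2 variance ratio was −0.16. The lowest value of 8 of the 28 was on replicate 6 (16.6% of all genes kept) and of 6 on replicate 5 (28.3%).

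Of the other alcohol and aldehyde dehydrogenases, 6 of 18 were on the array and 2 were kept. Aldh7a1, which breaks down lysine, was 8676 ± 672 (SD, n = 8), and Adh7, the class best known from stomach epithelium, 1289 ± 196. Aldh3a1 lay below the filter at 84.6 to 235, Aldh18a1 at 17.6 to 67.2 and Aldh1a3 at 18.1 to 48.8, and Aldh1a2, the main retinaldehyde dehydrogenase of embryos, was at or below the floor of 24.6 on all 8 arrays. Of the remaining enzymes that can oxidize ethanol, the microsomal cytochrome Cyp2e1 was 26082 ± 1142 and catalase (Cat) 6001 ± 871. Cat was lowest on replicate 6, with 4130.5 there and 5569.9 to 6932 on the others. Cyp2e1 had its lowest normalized signal on replicate 6 (24238) and its highest on replicate 8 (27781), but on the deposited scale it was 25963 on replicate 6 and lowest on replicate 8, at 25009.

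In the retinoid list 11 of 18 measured genes were kept. The reductase Rdh11 varied most against its level, with a log2 variance ratio of 2.43; it was 2552 ± 937 (SD, n = 8), with 1364 on replicate 6 and 1444 on replicate 7, the arrays low for Adh4. The retinoic acid hydroxylase Cyp26a1 ran from 80.2 on replicate 2 to 452 on replicate 3 (ratio 2.19), and the nuclear receptor Rxra from 642 on replicate 5 to 1651 on replicate 3 (ratio 1.87). The steadiest were the plasma retinol carrier Rbp4 (19094 ± 560.4, ratio −3.60), Rdh7 (8927 ± 698, ratio −1.36) and Rdh5 (497 ± 78.3, ratio −0.51). Among 9 kept genes of aldehyde reduction and one-carbon aldehydes, the aldehyde reductase Akr7a5 was 1677 on replicate 5 and 4724 to 6289.9 elsewhere (ratio 3.01, unadjusted p = 0.0303 by limma). Sarcosine dehydrogenase (Sardh), which releases formaldehyde, was 1353 there and 2322 to 3512 elsewhere (ratio 2.05), and the carbonyl reductase Cbr1 ran from 663 to 1692 (ratio 1.88). The aldehyde reductase Akr1a1 (8085 ± 484, ratio −2.24), Akr1c13 (3684.5 ± 439, ratio −0.80) and Gnmt, which makes sarcosine (14534 ± 1274, ratio −0.58), varied least. All 4 kept genes of amine metabolism were highest on replicate 5, as were 34.1% of all genes kept: histidase (Hal) at 5329.9, Sat1 at 1912, ornithine decarboxylase (Odc1) at 575 and monoamine oxidase A (Maoa) at 445.5.

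The genes most like each of the 8 were ranked by the lower of a pair of correlations, that over all 8 arrays and that over the 6 without replicates 5 and 6. Picked from 4810 genes over so few arrays, a high value is usual: the best likeness of a gene had a median of 0.946 over all genes. For Adh4 the leading genes were Cyp2e1 (0.938), Mcm10 (0.932) and the arylacetamide deacetylase Aadac (0.919). The likeness of Cyp2e1 to Adh4 rests on the normalization: 4 arrays shared the normalized signal 26524.5, and on the deposited scale Cyp2e1 was lowest on replicate 8, where Adh4 was highest. For Aldh1a1 they were the globin Hba-a1 (0.962), Irf5 (0.920) and the apolipoprotein Apof (0.897), and Hba-a1 read 2395 on replicate 6 and 5989 to 7174 on the others. For Aldh1a7 they were Stxbp3 (0.961), Paip2 (0.951) and Sqor (0.946), and for Aldh9a1 Srsf1 (0.983), Gnpnat1 (0.968) and Mrc1 (0.950). For Adh1 they were Selenos (0.962), Cetn3 (0.951) and Cct2 (0.899), and for Adh5 Stag2 (0.969), Mov10 (0.946) and protein C, Proc (0.923). For Aldh2 they were Hsd17b10 (0.916), Bche (0.894) and Mgll (0.838), and for Aldh3a2 Abcc2 (0.939), Cops5 (0.921) and Dpagt1 (0.920). No gene of the 8 was the nearest to another: the closest, Aldh1a7, came at rank 27 for Adh4. In the pairs that passed by r on all arrays, Aldh1a7 and Aldh9a1 each came at rank 73 for the other. Adh5 came at rank 173 for Aldh3a2, and Aldh3a2 at rank 266 for Adh5.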

How the data were processed

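Liver RNA of 8 mice was measured on 1 array each. Per the labels, a Hewlett-Packard scanner read the arrays. How signals were computed is not given in the sources used. Deposited values are intensities on a linear scale, which the authors had scaled: the mean after trimming 2% at each end was 500.4 on each array, with medians of 132 to 166. Control probe sets (66) were left out, and the other 12422 were quantile-normalized. Values below the 20th percentile (24.6) were raised to it and log2 was taken. Probe sets whose mean log2 signal exceeded the median of all were kept (6211, naming 4810 genes by their brightest set; 13 of the 14 sets of the 8 genes).

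Symbols were those of the platform annotation, and 8 of 8 matched RefSeq by gene identifier. Spread was tested with limma 3.58.1 in R 4.3.3: the variance over 8 arrays (7 degrees of freedom) over a robust prior variance that follows the level (4.03 degrees of freedom), F tests 1-sided upward and downward, with Benjamini-Hochberg adjustment over all kept probe sets. The upward F test and the permutation test of correlation were run on simulated data, and the downward F test was not. The simulated variances differed less between transcripts than the measured ones, so they do not give the power of the F test here. Correlations used exact permutations in numpy 2.4.6. Named genes were the 8, the 3 highest and 3 lowest variance ratios of each pathway list, Cyp2e1, Cat and Rbp4, and the 3 genes most like each of the 8. The members and lists were chosen with earlier results of these data known. Each label describes a mouse, but none says that extracts were prepared separately, so p-values measure the spread between these arrays, whose number limits the precision. The alternatives were the deposited scaling, another floor, 2 other level filters, 1 prior variance for all levels, the mean over probe sets, each array left out, and replicates 5 and 6 left out together.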

Additional observations from a re-analysis of the deposited data

Results flagged for a closer look

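Some signals had 1 array far from the other 7, by a gap that was a large share of the whole range on the log2 scale (Dixon's criterion). Chance would mark about 1 in 20 groups of normal values, and 20.8% of the 6211 kept probe sets were marked here, so the marks below are not particular to these genes. On replicate 5, the array with the raised Gapdh 3′ over 5′ ratio, Adh5 was low at 6519 and its second probe set high at 6624. Aldh3a2 was low there at 3269.9 and its second probe set high at 3622, and 1 of the other Aldh2 probe sets was low at 3289.7. Akr7a5 (1677), Sardh (1353), Stag2 (711), Proc (6206) and Dpagt1 (394.7) were low on the same array. On replicate 6, Aldh1a1 was low at 9789.8, Cat at 4130.5, Hba-a1 at 2395 and Apof at 3521.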

How the results depend on the processing

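The count of probe sets with more spread than transcripts of like level was 0 under the 14 alternatives run for it. That with less spread was 0 except with no level filter, where 163 of 11316 passed. Each alternative fitted the common spread to the probe sets it tested, so few could pass for more spread. The count of pairs correlated by r (2) was 5 when a gene's probe sets were averaged and 0 without replicates 5 and 6. It ran from 0 to 10 with 1 array left out. It was 0 without replicates 1, 3, 6, 7 or 8, 3 without replicate 4, 4 without replicate 2 and 10 without replicate 5. Aldh1a7 and Aldh9a1 had r = 0.93 to 0.97 in all 8 of these. Their adjusted permutation p ran from 0.0296 (without replicate 5) to 0.0889 (without replicate 6 or 7). The log2 variance ratio kept its sign in 110 of 120 values. That of Adh5 was −0.31 with the deposited scaling, −0.74 with 1 prior variance, −2.86 with probe sets averaged and −0.38 without replicates 5 and 6, and ran from −0.95 (without replicate 5) to 0.94 with 1 array left out. Aldh2 was at 0.11 with the filter at the 75th percentile and between −0.52 and 0.35 with 1 array left out (0.07 without replicate 7, 0.35 without replicate 6). Aldh3a2 was at 0.97 with probe sets averaged, and Aldh1a1 ran from −0.63 (without replicate 6) to 2.48. Beyond the arrays and probe sets named, the cause was not tested. No paired analysis was possible because all 8 arrays form 1 group.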
